A study of Mus musculus with 8 samples.

Results

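Ribosomal protein pseudogenes were taken as the rows of the deposited count table whose gene name is a ribosomal protein symbol followed by -ps and, in most cases, a number. The table held 260 such rows out of 46078 genes, 158 named after large subunit proteins and 102 after small subunit proteins, and their names pointed to 59 parent genes. RNA was measured in fully grown germinal vesicle (GV) oocytes of 4-week-old females on a C57BL/6J background, collected 48 h after an injection of pregnant mare serum gonadotropin, a hormone that makes ovarian follicles grow. The 4 control libraries came from Zp3-Cre mice, which carry a Cre recombinase driven by the promoter of the zona pellucida gene Zp3 and therefore active in growing oocytes. The 4 CNOT7&8 KO libraries came from females with floxed alleles of both Cnot7 and Cnot8 and the same Cre, so that both groups carried Cre and differed in the floxed alleles. Each library held the total RNA of 100 oocytes, depleted of ribosomal RNA and read as pairs of 150 bases. Cnot7 and Cnot8 encode deadenylases of the CCR4-NOT complex, beside Cnot6 and Cnot6l. The complex shortens poly(A) tails of mRNAs.

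Ribosomal proteins are made from some of the most abundant mRNAs of a cell, and most are encoded by a single main gene with introns. Processed pseudogenes are copies of such mRNAs that were reverse transcribed and inserted elsewhere in the genome, usually without introns and without the promoter of the parent gene, and ribosomal protein mRNAs are a frequent source of them. Because the copies resemble the coding sequence of the parent, reads of the parent can be placed on a pseudogene and the reverse, so each level below is given together with how much sequence the pseudogene shares with other genes.

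The annotation of the same genome build (GENCODE vM21, GRCm38) held 257 of the 260 identifiers, 245 of them as processed pseudogenes, 6 as transcribed processed pseudogenes and 6 as protein-coding genes, so the name and the annotated class differed for the last of these. Sequence shared with other genes was measured as the share of all stretches of 150 bases, the read length, that also occur in an annotated transcript of another gene on either strand. To show what this measure separates, 100 bases are given here of 5 pseudogenes in which no such stretch occurred elsewhere, each above the matching bases of its parent's coding sequence. All are written 5′ to 3′ on the strand of the pseudogene, and capitals mark the bases at which the pair differs, 8 for Rpl9-ps3 (chr11:53501210-53501309, plus strand), 6 for Rpl31-ps7 (chr6:47786251-47786350, minus strand), 9 for Rpl12-ps2 (chr11:20290259-20290358, minus strand), 2 for Rps18-ps1 (chr4:71371097-71371196, minus strand) and 7 for Rps19-ps8 (chr5:108055659-108055758, minus strand).
Rpl9-ps3: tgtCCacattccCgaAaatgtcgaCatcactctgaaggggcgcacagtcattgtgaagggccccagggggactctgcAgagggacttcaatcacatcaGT
Rpl9: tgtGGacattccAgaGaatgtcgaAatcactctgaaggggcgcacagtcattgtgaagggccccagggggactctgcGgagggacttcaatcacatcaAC
Rpl31-ps7: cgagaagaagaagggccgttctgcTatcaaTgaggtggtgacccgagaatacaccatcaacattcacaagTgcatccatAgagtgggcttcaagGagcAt
Rpl31: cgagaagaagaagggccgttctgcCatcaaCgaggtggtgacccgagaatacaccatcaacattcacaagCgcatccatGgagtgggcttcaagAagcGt
Rpl12-ps2: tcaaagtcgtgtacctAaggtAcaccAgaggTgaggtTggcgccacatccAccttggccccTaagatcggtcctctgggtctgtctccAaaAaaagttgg
Rpl12: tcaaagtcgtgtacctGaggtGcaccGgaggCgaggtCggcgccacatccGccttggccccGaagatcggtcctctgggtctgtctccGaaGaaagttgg
Rps18-ps1: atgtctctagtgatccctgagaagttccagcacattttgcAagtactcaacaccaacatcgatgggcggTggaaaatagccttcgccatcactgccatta
Rps18: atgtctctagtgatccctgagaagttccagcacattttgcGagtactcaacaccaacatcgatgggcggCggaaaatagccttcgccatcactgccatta
Rps19-ps8: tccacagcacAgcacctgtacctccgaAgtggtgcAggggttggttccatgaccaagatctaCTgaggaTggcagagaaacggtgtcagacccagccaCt
Rps19: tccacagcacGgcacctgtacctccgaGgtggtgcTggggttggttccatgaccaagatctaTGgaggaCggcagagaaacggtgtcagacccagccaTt

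The next 4 show the opposite case, pseudogenes in which every stretch of 150 bases also occurred in another gene. The 100 bases given had no difference from the parent and therefore hold no capitals. Those of Rpl35a-ps3 (chr17:29137205-29137304, minus strand) were also the first 100 bases of Rpl35a-ps2 on chromosome 1, Rps23-ps1 lay at chr3:37714740-37714839 on the plus strand, Rps12-ps3 at chr19:59322383-59322482 on the plus strand, and Rpl38-ps2 at chr6:140747073-140747172 on the minus strand.
Rpl35a-ps3: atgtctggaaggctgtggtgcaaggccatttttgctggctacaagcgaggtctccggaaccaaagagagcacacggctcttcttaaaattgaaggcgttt
Rps23-ps1: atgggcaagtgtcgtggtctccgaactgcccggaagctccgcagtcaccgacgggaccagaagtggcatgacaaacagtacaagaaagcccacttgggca
Rps12-ps3: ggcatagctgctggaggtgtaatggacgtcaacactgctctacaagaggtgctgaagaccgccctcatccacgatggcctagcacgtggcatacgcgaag
Rpl38-ps2: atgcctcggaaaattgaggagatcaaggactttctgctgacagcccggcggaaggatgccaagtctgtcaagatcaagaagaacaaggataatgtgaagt

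Counts summed to between 8639444 and 44092144 per library. Control replicate 1 and KO replicate 4, the deepest of their groups, stood apart, with chi-square values per degree of freedom of 141 to 210 against the other controls (7.85 to 17.7 among the rest) and of 40.7 to 91.8 against the other KO libraries (20.3 to 32.2 among the rest), a measure that grows with depth. The limit of detection was set at 3 counts per library, which made 0.0802 to 0.326 CPM (counts scaled to library sizes that were adjusted by edgeR's TMM method), and such limits cover counting error only. Cnot8 fell from 154 to 197 CPM in control libraries to 33.1 to 36.1 CPM in KO libraries (log2 fold change -2.25, adjusted p = 8.2e-08), while Cnot7 kept most of its counts and went from 886 to 1048 CPM down to 622 to 788 CPM (-0.38, adjusted p = 0.010). By immunoblot the study reported both proteins absent from KO oocytes, so the Cnot7 counts do not measure the loss of its protein. All 12 oocyte markers had counts in both groups. The summed level of 10 granulosa cell markers was 129 to 183 CPM in the controls against 226 to 304 CPM in KO libraries, all 10 with counts in either group, while 4 immune and blood markers summed to 0.748 to 1.83 CPM in the controls against 2.93 to 5.12 CPM in KO libraries, with Hba-a1 and Hbb-bs at 0. Whether these marker counts came from other cells or from the oocytes was not tested. The part of any such cells in the results below was not tested either. RNA per oocyte and the number of oocytes cannot be told apart in such libraries.

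Most pseudogenes were at or near the limit of detection. In 106 of the 260 no library had a count, 154 had at least 1 count, and 53 reached 0.2 CPM in 2 or more libraries and were tested. The 101 that had counts but were not tested held at most 26 counts summed over the 8 libraries, 37 pseudogenes had counts in KO libraries only and 14 in control libraries only. The number of pseudogenes with a count was 81.8 ± 9.32 in control and 85.0 ± 22.3 in KO libraries (SD, n = 4 each), lowest in the shallowest KO library and without separation of the groups. Of the 53 tested, 8 reached 0.2 CPM in KO libraries only and 3 in control libraries only, and 31 did so in at least 2 libraries of each group. The filter favoured a difference in a pseudogene that entered through 1 group, so counts over the 53 describe them and support nothing further. Their mean levels ran from 0.0991 to 6.09 CPM with a median of 0.376 CPM.

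The tested pseudogenes were close copies. All 53 had a single exon, their lengths ran from 151 to 1210 bases (median 459), and they came from 35 parents. Identity to the parent transcript was 99.3% in the median and 78.1% at the lowest, 10 were identical to the parent over the aligned bases, and 30 had 99% or more. No stretch of 150 bases recurred elsewhere in 15, every stretch recurred in 11, and 27 lay between. Of the 53, 33 lay in no other gene, 11 in an intron of a gene on the opposite strand, 6 in an intron on the same strand, 1 on an exon of another gene on the same strand and 2 on one of the opposite strand.

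In CNOT7&8 KO oocytes 7 of the 53 tested pseudogenes rose and 1 fell, with a false discovery rate up to 0.05 and a change of 2-fold or more in edgeR's quasi-likelihood test. Rpl9-ps3, Rps19-ps8, Rpl35a-ps3, Rpl12-ps2, Rpl31-ps7, Rps23-ps1 and Rps18-ps1 rose, and Rps12-ps3 fell. Of the 7 that rose, 4 (Rpl9-ps3, Rps19-ps8, Rpl35a-ps3 and Rpl12-ps2) had reached 0.2 CPM in KO libraries only, and Rps12-ps3 had done so in control libraries only, so the filter itself favoured a difference in these. With no filter beyond 1 count, where 154 pseudogenes were tested, all 8 were called. Without control replicate 1 and KO replicate 4 together, 6 rose and 1 fell, and Rps19-ps8 was the one lost. The share called higher, 13.2%, stood against 23.8% of all 19241 genes tested and 35.6% of the 10515 genes with a mean under 10 CPM, a range that holds every tested pseudogene. For calls lower the share was 1.89%, against 6.56% of all genes and 5.64% of those under 10 CPM. Among 1072 other processed pseudogenes tested, 31.9% were called higher and 3.92% lower. Both shares of the ribosomal protein pseudogenes were below those of each group beside them. These differences were not tested, so the number of calls is not read as a feature of these pseudogenes. Without the fold threshold the counts stayed at 7 and 1, against 31.2% of all genes higher and 24.1% lower, and at an unadjusted p under 0.05 there were 8 and 1, against 33.9% and 26.7%.

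The median log2 fold change of the 53 was -0.11 (range -3.57 to 8.26, 22 above 0 and 31 below), against 0.12 over all tested genes, 0.74 over genes under 10 CPM, 0.57 over other processed pseudogenes and -0.49 over the 78 tested ribosomal protein genes. Its sign depended on the scaling, since it was 0.16 with library size alone, a choice that moved the median of all genes by 0.29. For 7 of the 53 the CPM of the groups did not overlap, each time with the KO libraries higher, whereas 48.4% of all tested genes were without overlap in either direction. These 7 were the 7 called higher. For Rps19-ps8 the lack of overlap rests on KO replicates 1 and 3 with 1 count each, under the limit of detection.

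**Figure D1:**
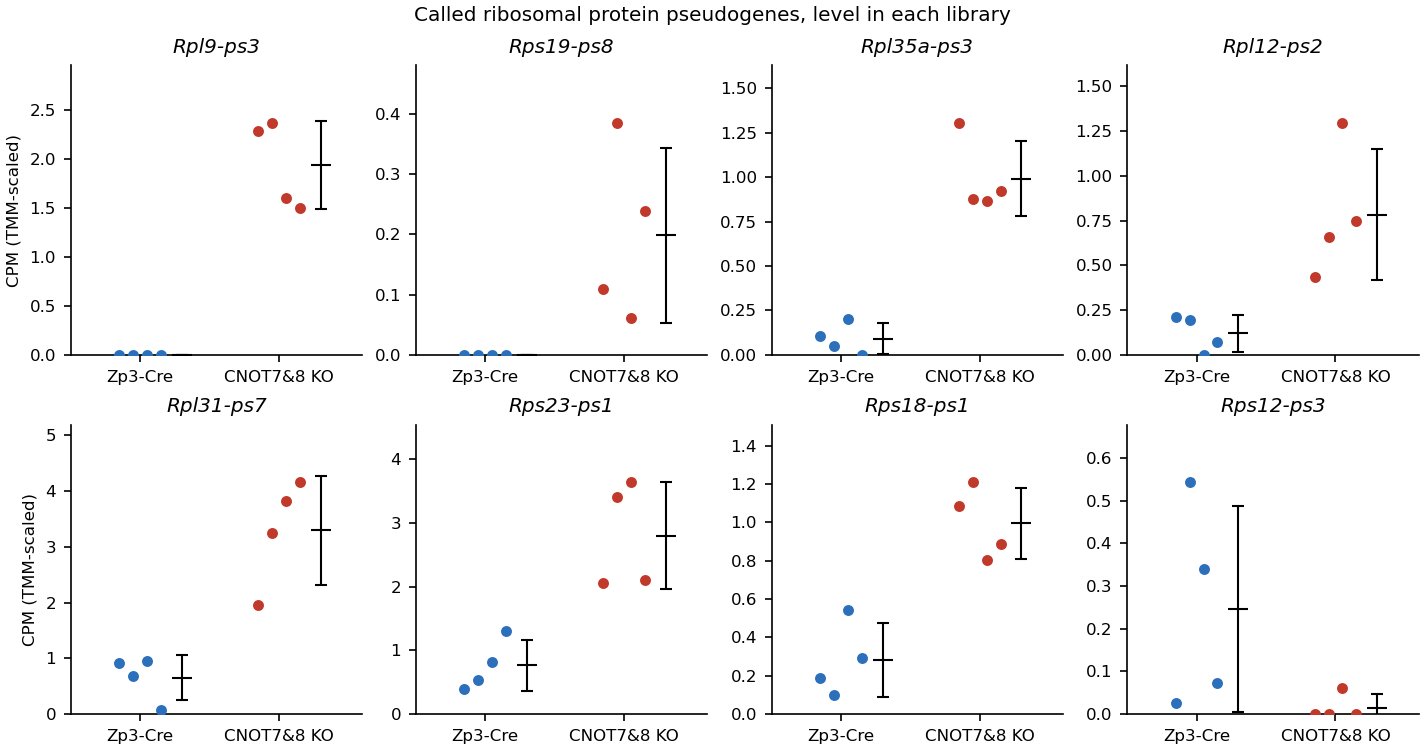
Level in each library (points, TMM-scaled CPM on linear axes that start at 0 and differ between panels) of the 8 called pseudogenes in Zp3-Cre control (blue) and CNOT7&8 KO oocytes (red), with the mean and SD of 4 libraries in black. The KO libraries lie above all control libraries in 7 panels, and in the panel of Rps12-ps3 the groups overlap.

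Of the 7 that rose, 5 had no stretch of 150 bases in any other annotated transcript. Rpl9-ps3 is a copy of Rpl9, which encodes a protein of the large subunit, and lies on chromosome 11 between the protein-coding genes Gm9945 and Sept8, 20087 and 17498 bases away. It had 0 counts in every control library and 21, 43, 26 and 44 counts in KO replicates 1 to 4. The KO mean was 1.94 ± 0.448 CPM (SD, n = 4). Set against the mean of the 3-count limits of the control libraries, 0.163 CPM, it was at least 11.9-fold higher. The fitted log2 fold change was 8.26 (SE 0.71, adjusted p = 1.4e-05), a value that depends on the prior count because the controls were at 0. The whole copy aligned to the Rpl9 transcript with 92.2% identity. Its longest reading frame, from ATG to stop within the annotated bases, had 32 codons where the coding sequence of Rpl9 has 192. A copy annotated without its start or stop codon scores short on this measure, so a short value alone does not show a broken frame. Sept8, the nearest neighbour of Rpl9-ps3, was at a log2 fold change of 0.60 (adjusted p = 0.40).

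Rpl31-ps7, a copy of the large subunit gene Rpl31, had the highest KO mean of the pseudogenes that rose, while Rps23-ps1 had the highest control mean of them. It had 34, 14, 14 and 1 counts in control replicates 1 to 4, or 0.909, 0.691, 0.952 and 0.0728 CPM. In the KO libraries it had 18, 59, 62 and 122 counts, or 1.95, 3.24, 3.82 and 4.15 CPM. Every KO library was thus above the highest control library. The means were 0.656 ± 0.405 and 3.29 ± 0.969 CPM (SD, n = 4 each), a log2 fold change of 2.27 (SE 0.44, adjusted p = 0.00092). The copy had 93.7% identity to the Rpl31 transcript over 91.6% of its length and a longest frame of 27 codons against 129. It lies on chromosome 6 between the Y RNA genes Rny3 and Rny1, 4271 and 1695 bases away, for which the fold changes were 0.05 (adjusted p = 0.94) and -0.27 (adjusted p = 0.57) on the log2 scale.

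Rpl12-ps2, copied from the large subunit gene Rpl12, had 8, 4, 0 and 1 counts in the control libraries and 4, 12, 21 and 22 in the KO libraries. Scaled to depth these were 0 to 0.214 CPM in the controls and 0.434 to 1.29 CPM with the KO, without overlap, although the raw counts of the deepest control and the shallowest KO library cross. The log2 fold change was 2.46 (SE 0.61, adjusted p = 0.0045). The copy holds 91.4% of identical bases and a longest frame of 16 codons. It lies 11797 bases downstream of Slc1a4, which encodes a transporter of neutral amino acids and is transcribed from the same strand, and Slc1a4 rose by a log2 fold change of 3.08 (SE 0.26, adjusted p = 1.8e-06). Whether reads run from that gene into the pseudogene was not tested.

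Rps18-ps1, from the small subunit gene Rps18, had 7, 2, 8 and 4 counts in control and 10, 22, 13 and 26 in KO libraries. Its level was 0.280 ± 0.193 CPM in controls and 0.995 ± 0.185 CPM in the KO (SD, n = 4 each), with a log2 fold change of 1.90 (SE 0.48, adjusted p = 0.0055). Counted from ATG to stop within the annotated bases, its longest frame had 152 codons as in Rps18, unlike in the other 4. The shorter values of those 4 do not by themselves show that their frames were broken. Identity of Rps18-ps1 to its parent was 98.3%. The nearest annotated gene lay 84360 bases away.

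Rps19-ps8, from the small subunit gene Rps19, had no count in the control libraries and 1, 7, 1 and 7 counts in the KO libraries. The KO mean was 0.198 ± 0.145 CPM (SD, n = 4). That mean was 1.22-fold the mean control limit of 0.163 CPM but below the limits of control replicates 3 and 4 (0.204 and 0.218 CPM). KO replicates 1 and 3, at 1 count each, were under the limit of 3 counts, so the 16 counts set no firm bound. The fitted log2 fold change of 5.11 (SE 1.28, adjusted p = 0.0078) again depends on the prior count. Without KO replicate 2 or without KO replicate 4 the pseudogene no longer reached 0.2 CPM in 2 libraries and was not tested.

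The other 2 that rose cannot be told from other genes by sequence. Rps23-ps1 was identical to the small subunit gene Rps23 over all its 425 bases. It had 15, 11, 12 and 18 counts in control libraries and 19, 62, 59 and 62 in KO libraries, or 0.401 to 1.31 CPM and 2.06 to 3.64 CPM, with a log2 fold change of 1.95 (SE 0.38, adjusted p = 0.0010). The parent rose as well, from 30.5 ± 6.16 to 83.4 ± 11.5 CPM (log2 fold change 1.45, SE 0.16, adjusted p = 1.5e-05). The ratio of the pseudogene to Rps23 overlapped between the groups, with a difference of 0.47 on the log2 scale (exact permutation test, two-sided, p = 0.31, n = 4 each). The pseudogene also overlaps exons of Gm5148 on the opposite strand, and the strand setting of the counting is not given in the sources used here.

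Rpl35a-ps3, a copy of the large subunit gene Rpl35a in an intron of Rab44 on the opposite strand, had 4, 1, 3 and 0 counts in control libraries and 12, 16, 14 and 27 in KO libraries. Its level went from 0.0901 ± 0.0877 to 0.991 ± 0.209 CPM (SD, n = 4 each), a log2 fold change of 3.32 (SE 0.57, adjusted p = 0.00039), while Rab44 was at 0.02 (adjusted p = 0.97). Cdkn1a, which encodes an inhibitor of cyclin-dependent kinases and lies 36245 bases away on the opposite strand, was at 2.62 (adjusted p = 0.00068). All of its 333 bases are shared with Rpl35a-ps2, Rpl35a-ps4 and Rpl35a-ps6. Of these, Rpl35a-ps2 passed the filter, and it had 30, 10, 10 and 9 counts in control and 5, 7, 5 and 15 in KO libraries. Its log2 fold change was -0.61 (adjusted p = 0.20), on the other side of 0.

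The pair was singled out after its values were seen and is given without a test. Within a library the log2 ratio of Rpl35a-ps3 to Rpl35a-ps2 counts was -2.85 in the control mean and 1.14 in the KO mean, a difference of 3.99. The ratio was below 0 in every control library (-4.25 to -1.58) and above 0 in every KO library (0.83 to 1.40). Reads inside the 333 bases fit both loci equally, and how such reads were shared out in the counting is not given in the sources used here. Rpl35a itself went the other way from Rpl35a-ps3, from 125 ± 6.13 to 88.4 ± 9.17 CPM (log2 fold change -0.51, adjusted p = 0.0018, below the 2-fold threshold).

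**Figure D2:**
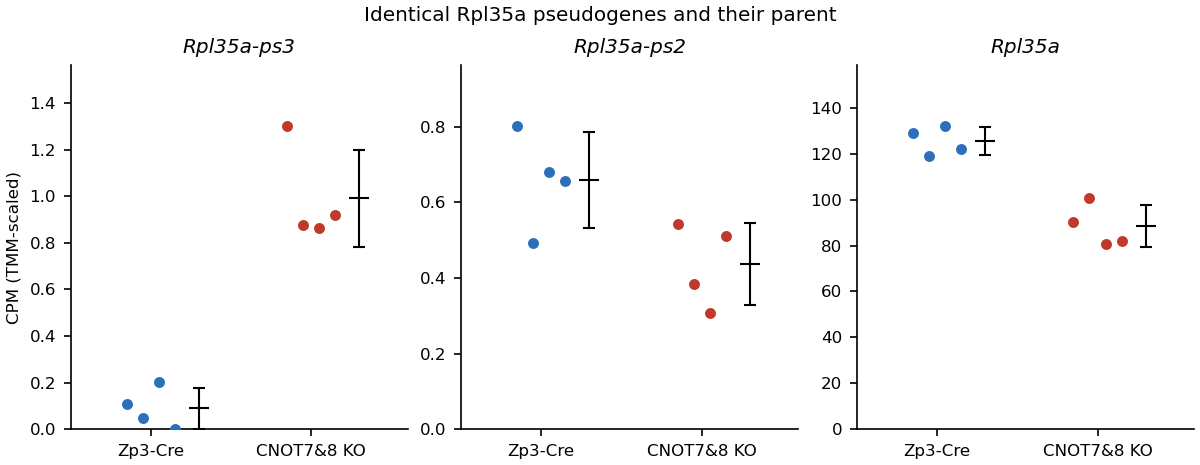
TMM-scaled CPM per library of Rpl35a-ps3, of Rpl35a-ps2, which has the same 333 bases, and of the parent gene Rpl35a, with points for libraries and the mean and SD of 4 libraries in black. In the KO libraries Rpl35a-ps3 lies at 0.863 to 1.30 CPM and above all controls, Rpl35a-ps2 at 0.308 to 0.543 CPM and Rpl35a at 80.7 to 101 CPM, below all controls.

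Rps12-ps3 was the only pseudogene called lower. It is annotated as protein-coding despite its name, lies in an intron of Pdzd8 on the opposite strand, and shares every stretch of 150 bases with the small subunit gene Rps12. It had 1, 11, 5 and 1 counts in control libraries and 0, 0, 1 and 0 in KO libraries, and the groups overlapped. The ratio of KO to control counts, scaled for depth, was 0.0655 with a 95% interval of 0.00157 to 0.415 for counting error alone. The fitted log2 fold change was -3.57 (SE 1.30, adjusted p = 0.033). The call was lost with library size alone and with TMM factors from genes of at least 10 CPM, and also without KO replicate 1, 2 or 4 and without control replicate 2 or 3.

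**Figure D3:**
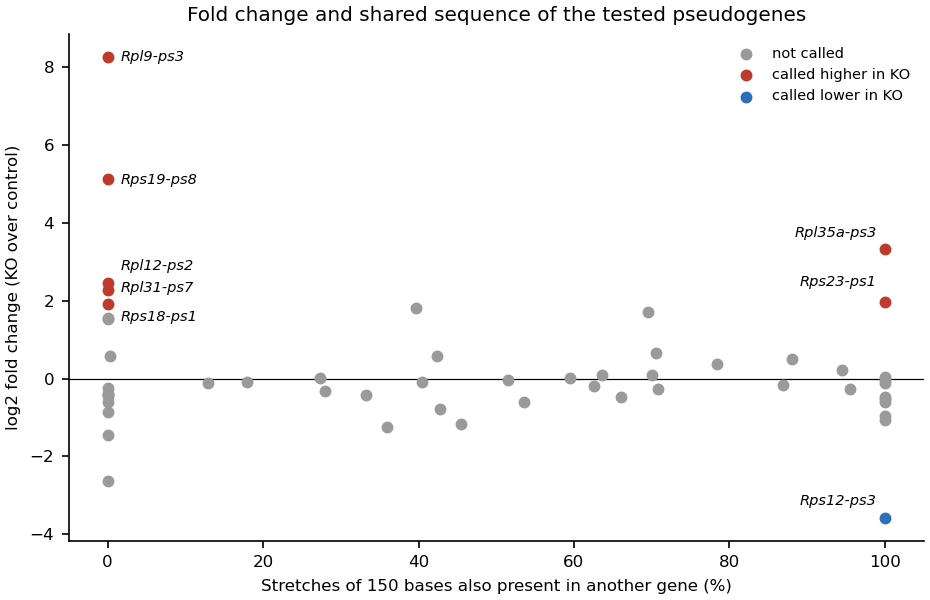
Log2 fold change (KO over control, edgeR) of the 53 tested pseudogenes against the percentage of their 150-base stretches that also occur in an annotated transcript of another gene, coloured by call. Called pseudogenes stand at 0% (5 higher) and 100% (2 higher, 1 lower), and the 27 in between, from -1.23 to 1.81, hold none, while the values of Rpl9-ps3 and Rps19-ps8 depend on the prior count because their control libraries are at 0.

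Of the 15 pseudogenes with no stretch elsewhere 5 were called higher (33.3%), a share near the 35.6% of all genes under 10 CPM, and 3 of these 5 had reached 0.2 CPM in KO libraries only. Of the 11 with every stretch elsewhere 2 were called higher and 1 lower. Of the 27 between none was called by edgeR, nor did any of these 27 have an unadjusted p under 0.05. The 10 uncalled pseudogenes with sequence of their own had log2 fold changes from -2.64 for Rps10-ps1 (adjusted p = 0.11) to 1.56 for Rpl10-ps4 (adjusted p = 0.24). Rps19-ps3 was just outside the threshold, with a log2 fold change of 1.52 and an adjusted p of 0.053, and it was called higher under 3 other scalings (library size alone, upper quartile, and TMM restricted to genes above 10 CPM) and without control replicate 1, KO replicate 1 or KO replicate 2. By subunit, 3 of 23 small subunit and 4 of 30 large subunit pseudogenes were called higher, 13.0% and 13.3%, again beside 35.6% of genes under 10 CPM. Reading frames were counted from ATG to stop within the annotated bases. Among the 24 whose longest such frame was within 2 codons of the parent's coding sequence, 2 (8.33%) were called higher and none lower by edgeR. Of these 24, 2 had an unadjusted p under 0.05. Copies annotated without a start or stop codon can fall outside the 24. Rps23-ps1, identical to Rps23 over its whole length and called higher, had 15 codons against 143.

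The 10 with the highest mean CPM held 55.0% of all counts on the 260, and 3 of these 10, Rpl9-ps3, Rpl31-ps7 and Rps23-ps1, were called higher. Of all tested genes 23.8% were, and of genes under 10 CPM, a range that holds all 10, 35.6%. Rpl9-ps3 had no control counts and entered the 10 through KO libraries only, so the ranking itself favoured a difference there. Rpl17-ps10, a full-length copy of the large subunit gene Rpl17 at 99.3% identity, alone held 15.7% of the counts, and 62.6% of its 150-base stretches also occurred in Rpl17. It was at 6.48 ± 0.636 CPM in controls and 5.71 ± 0.745 CPM in the KO (SD, n = 4 each), with a log2 fold change of -0.19 (SE 0.17, adjusted p = 0.36). Rpl38-ps2, identical to the large subunit gene Rpl38 over its 213 bases, was at 5.04 ± 0.736 and 4.89 ± 0.762 CPM with a log2 fold change of -0.05 (SE 0.20, adjusted p = 0.85). Per kilobase of exon Rpl38-ps2 was the higher of the pair, at 23.3 against 11.0 CPM per kilobase for Rpl17-ps10.

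The other 5 of the 10 were at lower levels and were not called either. Rpl17-ps5 had a mean of 2.06 ± 0.377 CPM in controls and 1.87 ± 0.570 CPM in the KO. Of its stretches of 150 bases, 86.9% also occurred in another gene. Rps13-ps2, from the small subunit gene Rps13, stood at 1.12 CPM in both means and shared every such stretch with Rps13. Rpl7a-ps8, which shares no stretch of 150 bases elsewhere and keeps a frame of 266 codons like Rpl7a, was at 1.23 ± 0.947 and 0.892 ± 0.434 CPM. Rpl10a-ps1 and Rpl31-ps8 shared every such stretch with their parents. Rpl10a-ps1 had a log2 fold change of -0.47 (adjusted p = 0.35) and Rpl31-ps8 one of -0.97 (adjusted p = 0.086), and for all 5 the groups overlapped. Not passing the test does not show that these levels were equal.

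Pseudogenes of the same parent differed in their fold changes in some families and were close in others. Of 14 parents with 2 or more tested pseudogenes (32 pseudogenes), 6 had a called one and none had more than 1. Of all genes under 10 CPM, 35.6% were called higher. Beside Rpl9-ps3, Rpl9-ps6 had a log2 fold change of 1.71 (adjusted p = 0.095). Rpl31-ps8 stood at -0.97 beside Rpl31-ps7 at 2.27, and Rps18-ps3 at 0.57 (adjusted p = 0.49) beside Rps18-ps1 at 1.90. Rps19-ps3 and Rps19-ps6 were at 1.52 and -0.08 beside Rps19-ps8. Rps23-ps2 was at 0.49 (adjusted p = 0.63) beside Rps23-ps1. Among parents without a called one, the pseudogenes of Rpl17 were close (-0.16 and -0.19) and those of Rps10 far apart (0.09 and -2.64). The differences within families were not tested.

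Parent genes give the level from which shared reads would come. The parents of 5 of the 7 pseudogenes that rose had negative log2 fold changes, from -0.25 for Rps18 to -0.53 for Rpl12, none of them past the 2-fold threshold. With library size alone that of Rps18 turned to 0.03 and the other 4 stayed below 0. The parents of the other 2, Rps23 and Rpl9, were called higher. Rpl9 was at 15.2 ± 5.42 CPM in controls and 57.0 ± 2.99 CPM in the KO (SD, n = 4 each, log2 fold change 1.90, SE 0.22, adjusted p = 2.0e-05). These were also the 2 ribosomal protein genes called higher out of 78 tested (2.56%), with 2 called lower (2.56%). Of all tested genes, 23.8% were called higher and 6.56% lower. Without the fold threshold 2 of the 78 were higher and 36 lower, beside 31.2% and 24.1% of all genes.

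**Figure D4:**
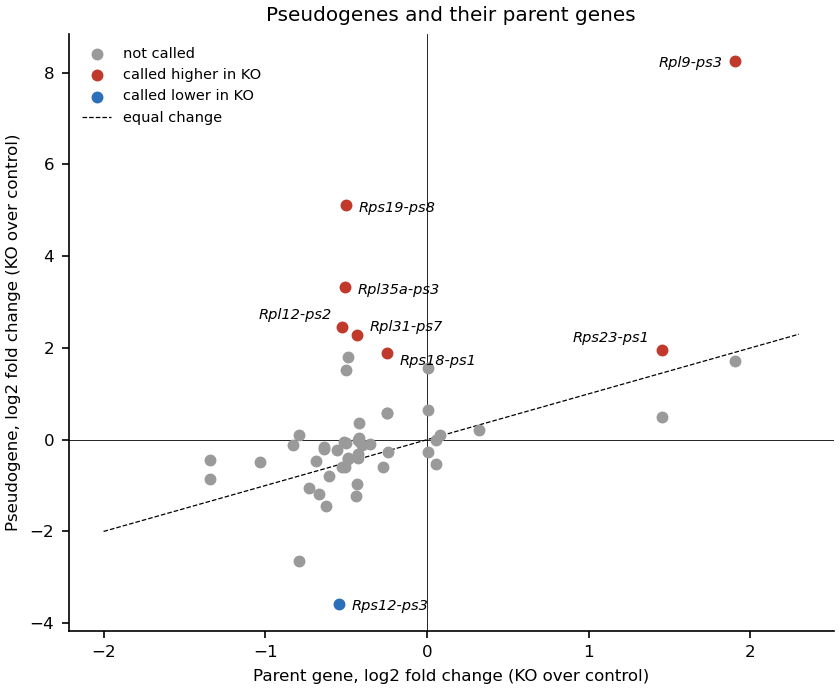
Log2 fold change (KO over control, edgeR) of each of the 53 tested pseudogenes against that of its parent gene, coloured by call, with a dashed line where both are equal. Of the 7 called higher, 5 lie to the left of 0 on the axis of the parent and 2, Rpl9-ps3 and Rps23-ps1, to the right.

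The ratio of a pseudogene to its parent within a library does not depend on how libraries are scaled. It was taken as the log2 ratio of counts with 0.5 added to each, and 7 of 53 pairs (13.2%) had ratios that did not overlap between the groups, each higher in the KO libraries, against 28.6% of 70 other genes named -ps in either direction. Each of the 7 had the smallest p that 70 assignments of 8 libraries allow (exact permutation test, two-sided, p = 0.0286, n = 4 each), and the adjusted p over the 53 pairs was 0.216, so none passed. The 7 were Rpl9-ps3, Rpl35a-ps3, Rps19-ps8, Rpl12-ps2, Rpl31-ps7, Rps18-ps1 and Rpl38-ps2. The first 6 were called above, and these ratios share their counts with those calls.

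The KO mean of the ratio was higher by 3.07 on the log2 scale for Rpl31-ps7 and by 2.18 for Rps18-ps1. For Rpl9-ps3 and Rps19-ps8, which had no control count, the size of the difference depends on the added 0.5. That of Rpl38-ps2 was -4.38 to -4.33 in control and -4.04 to -3.66 in KO libraries, a difference of 0.47 at an unchanged call of the pseudogene, with Rpl38 at a log2 fold change of -0.51 (adjusted p = 0.0057). Among the called pseudogenes and the 10 most abundant, Rpl38-ps2 had the highest ratio (median -4.18), followed by Rps23-ps1 (-5.23) and Rpl10a-ps1 (-6.11), and Rps12-ps3 (-11.75), Rps19-ps8 (-10.46) and Rpl7a-ps8 (-8.21) had the lowest. Over all 53 pairs the ratio was higher in the KO mean in 33, with a median difference of 0.26, beside a median of 0.40 over the 70 other genes named -ps.

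By parent, the share of counts that lay on pseudogenes was small. For Rpl38 it was 4.65% ± 0.0612 in control and 6.37% ± 0.644 in KO libraries (SD, n = 4 each), the highest of the 35 parents with a tested pseudogene. For Rpl9 and its 9 pseudogenes it went from 0.717% to 2.21% in control to 3.21% to 4.43% in KO libraries. For Rpl31 and its 22 pseudogenes it went from 0.637% to 1.70% to 1.96% to 5.21%. Rps12, with 21 pseudogenes, had 0.130% ± 0.0749 and 0.0653% ± 0.101, and its ranges overlapped.

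Summed over all 260 pseudogenes, the level was 36.8 ± 5.22 CPM in controls and 41.6 ± 2.20 CPM in the KO (SD, n = 4 each), a log2 difference of 0.19. The ranges, 32.3 to 43.2 and 38.8 to 43.5 CPM, overlapped. The difference was 0.47 with library size alone. Counts of the 260 came to 0.220% to 0.277% of those of the ribosomal protein genes in control libraries and to 0.342% to 0.469% in KO libraries, without overlap, and the ribosomal protein genes themselves summed to 14625 ± 2093 CPM in controls and 10888 ± 1433 CPM in the KO. As these sums were made over genes chosen with the data known, no test is given.

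**Figure D5:**
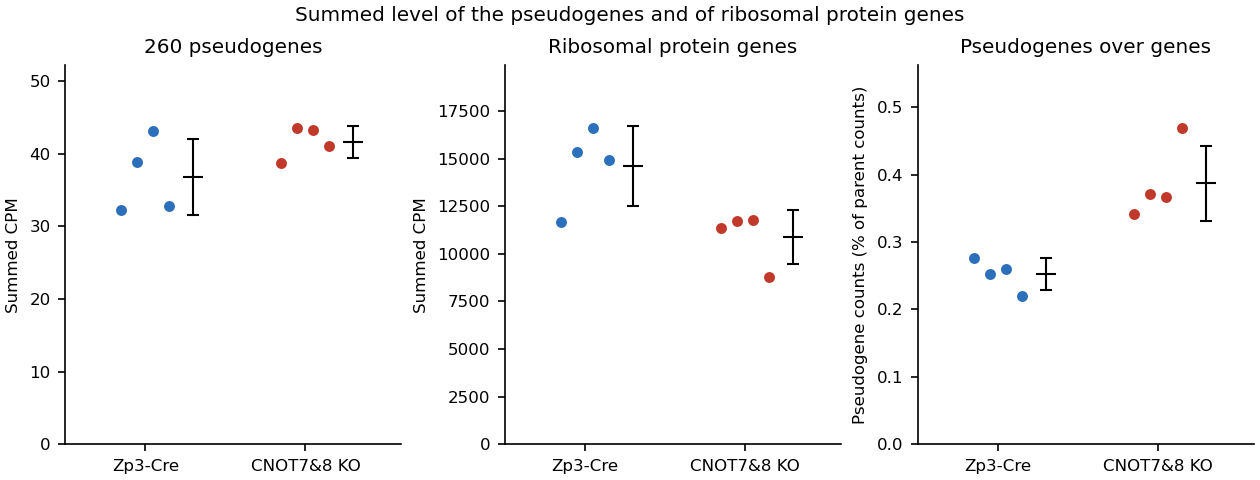
Summed TMM-scaled CPM of the 260 pseudogenes (left) and of the ribosomal protein genes (middle), and counts of the former as a percentage of the latter (right), per library (points) with the mean and SD of 4 libraries in black. The pseudogene sums overlap between 32.3 and 43.5 CPM, and the percentages do not overlap.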

How the data were processed

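Reads were processed by the authors with nf-core/rnaseq. They were mapped to GRCm38 with STAR 2.6.1d (submitters' processing notes), and the authors deposited raw read counts per gene for 8 libraries, unnormalized, unfiltered and unpooled. The counting tool, the annotation release and the strand setting are not given in the sources used here, and the labels and the methods name different library kits. The 8 columns were assigned to samples by the genotype and number in their names, and p-values measure the spread between these libraries.

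Genes with at least 0.2 CPM in 2 libraries were tested on the whole table with edgeR 4.0.16 (R 4.3.3), TMM scaling, the quasi-likelihood test and Benjamini-Hochberg adjustment. Called genes had a false discovery rate up to 0.05 and a change of 2-fold or more. On simulated data with 18530 genes, of which 200 changed 4-fold (CNOT7&8 KO against Zp3-Cre), 196 were recovered with 6 false calls. The changed genes were drawn only from levels of 1 CPM upwards, which 7 of the 53 tested pseudogenes reached, 2 of them called. For the pseudogenes below that level the simulation gives no rate of recovery. The study's own method, edgeR's exact test, was an alternative, as was DESeq2 1.42.0. Coordinates and sequences came from GENCODE vM21, and identity to the parent transcript with the longest coding sequence from blastn 2.17.0. Figures were made with Python 3.11.15 and matplotlib 3.10.9.

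Named pseudogenes were all that were called, the 10 with the highest mean CPM, their parents, and those with the 3 highest and 3 lowest ratios to the parent among these. Others named were chosen after their values were seen, except annotated neighbours and pseudogenes of the same parent. The members and lists were chosen with earlier results of these data known. Libraries of the same group differed by more than counting noise (lowest chi-square per degree of freedom 7.85).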

Additional observations from a re-analysis of the deposited data

Results flagged for a closer look

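In groups of 4 libraries, the highest or lowest library was singled out where its gap to the nearest other took up most of the group's range (Dixon's 95% critical value). Of 58 groups tested, 5 had such a library, and chance gives about 2.9. Rpl35a-ps3 was at 1.30 CPM in KO replicate 1 and at 0.863 to 0.919 CPM in the other KO libraries. Rps12-ps3 was at 0.0617 CPM, which is 1 count, in KO replicate 3 and at 0 in the other KO libraries. Among parents, Rps12 was at 146 CPM in control replicate 1 against 354 to 386 CPM in the other controls. Rpl17 was at 380 CPM in KO replicate 2 against 307 to 319 CPM in the other KO libraries, and Rps13 at 198 CPM in KO replicate 4 against 275 to 287 CPM. The reasons were not tested.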

How the results depend on the processing

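Counts of at most 26 on the untested and at most 965 on a tested pseudogene, summed over 8 libraries, limit what can be seen. The 7 calls higher and 1 lower became 3 and 0 with a filter of 1 CPM in 4 libraries, which left 8 pseudogenes to test. The single call lower became 0 with library size alone and with TMM factors from genes of at least 10 CPM. The replicate block gave 2 lower and 7 higher, although equal replicate numbers did not pair the libraries (correlations of deviations -0.13, -0.08, 0.21 and -0.24), and added Rpsa-ps10. Leaving out 1 library gave 6 to 9 calls higher and 0 to 3 lower, with 3 lower without control replicate 1 or KO replicate 3 and 0 without control replicate 2 or 3 or KO replicate 1 or 2. Without KO replicate 4 the call lower was Rpl31-ps8 in place of Rps12-ps3. The median log2 fold change of -0.11 was 0.16 with library size alone, 0.13 with TMM on genes of at least 10 CPM, 0.10 with a filter of 1 count and 0.071 with the filter of 1 CPM, and ranged from -0.15 to 0.01 without 1 library. Library size alone, TMM on genes of at least 10 CPM and upper quartile scaling moved the median of all genes by 0.29, 0.26 and 0.10. The log2 difference of the summed counts of 0.19 was 0.47 and 0.44 under the first 2 of these. The cause of these shifts was not tested. With no filter beyond 1 count, 154 pseudogenes were tested and 11 called, among them all 8 and Rpl35-ps1, Rps13-ps8 and Rps19-ps9. An alternative chosen after seeing the data, without control replicate 1 and KO replicate 4, kept 7 of the 8 and lost Rps19-ps8. Rps19-ps3 was gained under 6 of the alternatives. DESeq2, edgeR's exact test and RLE scaling gave the same 8. Rpl9-ps3, Rpl31-ps7 and Rps23-ps1 were called under all 18 alternatives, with log2 fold changes of 7.70 to 8.43, 1.97 to 2.58 and 1.69 to 2.32. The number of pseudogenes whose ratio to the parent did not overlap was 7 to 10 without 1 library.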
